A study of Mus musculus with 6 samples.

Results

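Trabeculation and compaction signals are described here as 10 genes that act in building the ventricular wall: Nrg1, Erbb2, Erbb4, Bmp10, Hey2, Mycn, Irx3, Irx4, Fkbp1a and Prdm16. They were taken by symbol from a table of read counts on 45792 mouse genes, each symbol matched 1 row, and all 10 passed the filter on low counts that left 17125 genes for testing. The counts came from whole hearts of individual embryos at embryonic day 13.5 (e13.5), 3 labelled wild-type and 3 labelled Tie2Cre INO80 flox/flox, and the comparison asks how deletion of the chromatin remodeller Ino80 from endothelial cells bears on genes of the heart wall. Tie2Cre drives recombination in endothelial and endocardial cells and some blood cells, not in cardiomyocytes, and the flox allele, derived by Flp recombination, has loxP sites around exon 6 of Ino80. The labels give the strain as C57BL/6, whereas the methods describe mixed backgrounds, littermate controls of every genotype other than the mutant one, and embryos that were not genotyped for sex. As the described cross used Ino80 fl/fl mothers, a flox allele may also be present in hearts labelled wild-type. No drug was given.

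The inner face of the embryonic ventricle is thrown into trabeculae, and the outer wall thickens into a compact layer by cardiomyocyte proliferation. Neuregulin made by the endocardium binds the ErbB4 receptor on cardiomyocytes, which signals as a dimer with ErbB2, and this exchange is needed for trabeculae to form. BMP10 is a ligand of trabecular and later atrial myocardium that maintains cardiomyocyte growth, and the loss of FKBP12, the product of Fkbp1a, is known to cause excess trabeculation in mice. Hey2, Mycn and Prdm16 are associated with the compact layer, while Irx3 marks the trabecular conduction system and Irx4 the ventricles.

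The total count was 37424689, 30549842 and 33693638 in control hearts 1 to 3 and 89675692, 41836114 and 28948836 in mutant hearts 1 to 3. Levels are given as CPM, the counts of a gene per M counts of the library after TMM scaling. A positive log2 fold change means a higher level in the mutant group, fold changes and unadjusted p-values are from the quasi-likelihood test of edgeR, and p-values were adjusted by the Benjamini-Hochberg method over all 17125 genes. As each heart is 1 sample, the p-values set the difference between the groups against the spread between hearts. Ino80 itself, counted over the whole gene, was at 30.2, 31.6 and 32.7 CPM in the control hearts and 36.4, 33.7 and 31.8 CPM in the mutant hearts, which overlap, so the counts do not check the genotype labels, and control and mutant name the groups only as labelled. All 6 cardiomyocyte markers listed were present in every heart, with a summed level of 17939 to 21924 CPM in control and 18421 to 19374 CPM in mutant hearts, and 4 liver markers summed to no more than 1.77 CPM. Of 6 atrial markers 4 were higher in mutant hearts at an unadjusted p under 0.05, against 9.48% of all tested genes, and Sln overlapped (log2 fold change -0.17). Their summed level, mostly of Myl4, was 1468 to 1623 CPM in control and 1845 to 2271 CPM in mutant hearts. The share of embryonic Hbb-y in the sum of Hbb-y and adult Hbb-bt was 19.4%, 1.10% and 1.75% in the control and 42.2%, 51.2% and 37.3% in the mutant hearts. Every mutant heart was above every control one, and control heart 1 was the nearest to the mutant hearts. Whether the groups differ in developmental stage within the shared label of e13.5, and its part in the values below, was not tested. In whole hearts, fewer cells of a type and less RNA per cell cannot be told apart.

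Of the 10 genes, 9 have a promoter window in the RefSeq table for GRCm38.p6, from 250 bases before to 50 bases after the start, and Nrg1 has none there. The windows of Erbb2, Hey2 and Mycn are shown because these were the genes with an unadjusted p under 0.05, and only the bases upstream of every exon that GENCODE vM21 annotates are printed, 5′ to 3′ on the gene's strand. Capitals mark matches to any of 4 motifs searched on both strands: E2F (TTTGGCGC, TTTCCCGC, TTTCGCGC or TTTGCCGC), RBPJ, the DNA-binding factor of Notch signalling (GTGGGAA), the E-box bound by MYC proteins (CACGTG) and the T-box (AGGTGTGA).
Erbb2 (chr11:98412234-98412469, plus strand): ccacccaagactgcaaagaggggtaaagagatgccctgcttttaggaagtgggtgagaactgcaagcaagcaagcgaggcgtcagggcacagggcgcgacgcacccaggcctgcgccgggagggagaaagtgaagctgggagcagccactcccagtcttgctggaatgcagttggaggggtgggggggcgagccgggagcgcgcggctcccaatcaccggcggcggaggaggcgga
Hey2 (chr10:30842802-30843033, minus strand): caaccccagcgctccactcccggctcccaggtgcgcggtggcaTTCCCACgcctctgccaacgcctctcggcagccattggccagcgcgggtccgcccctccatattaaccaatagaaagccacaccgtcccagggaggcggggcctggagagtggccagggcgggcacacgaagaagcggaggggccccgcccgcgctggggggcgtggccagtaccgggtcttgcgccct
Mycn (chr12:12941915-12942086, minus strand): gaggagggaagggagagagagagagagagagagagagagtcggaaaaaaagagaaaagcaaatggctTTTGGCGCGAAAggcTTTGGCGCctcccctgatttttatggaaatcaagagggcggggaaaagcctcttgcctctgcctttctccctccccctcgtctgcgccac

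Positions here count from the RefSeq start, and the printed stretches end before it, at the first exon that GENCODE annotates. The Mycn window held 3 E2F matches, between 183 and 161 bases upstream of the RefSeq start, of which the first and second overlap each other. An E2F match was present in 2.26% of 32851 mouse promoter windows of the same length, and in 1 of the 9 windows of these genes. The Hey2 window held 2 RBPJ matches, at 207 to 201 bases upstream and across the start, the latter outside the printed stretch. An RBPJ match was present in 6.38% of all windows and in no other of the 9. No E-box or T-box match was present in any of the 9 windows, against 7.15% and 1.28% of all windows. These are matches of letters and no measure of binding.

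At an adjusted p under 0.05, 0 of the 10 genes and 0 of 17125 genes passed (a background of 0%), and the smallest adjusted p of any gene was 0.053. At an unadjusted p under 0.05, 2 of the 10 were higher in mutant hearts (Erbb2 and Mycn), against 9.48% of all tested genes, and 1 was lower (Hey2), against 9.98%. Together 3 of 10 passed this looser limit where 19.5% of all genes did. With DESeq2 1 of the 10, Erbb2, passed an adjusted p of 0.05, against 6.10% of the 16614 genes that it adjusted. The groups did not overlap for 2 of the 10 (Erbb2 and Hey2), against 27.1% of all genes. With 10 genes, these counts are near the background and set the group apart from other genes in neither direction.

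**Figure D1:**
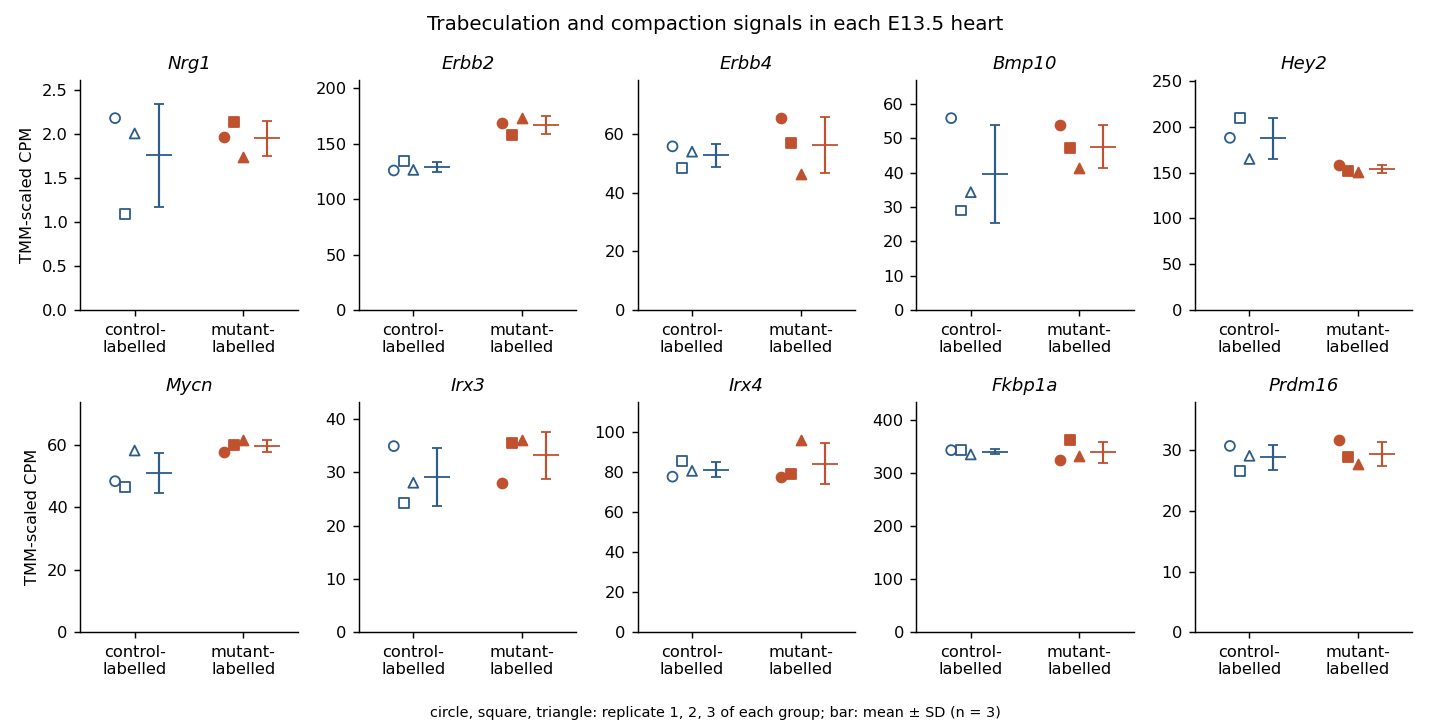
TMM-scaled CPM of each of the 10 genes (y axes from 0, each panel with its own scale) in the 3 control (open) and 3 mutant (filled) e13.5 hearts. Marker shapes give the replicate, and bars give the mean ± SD (n = 3). The groups are separate for Erbb2 (higher) and Hey2 (lower) and overlap for the other 8.

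Nrg1, the endocardial ligand (chr8:31814551-32884029, minus strand, GRCm38), was the scarcest of the 10. It was at 2.18, 1.09 and 2.01 CPM in control hearts 1 to 3 and at 1.97, 2.14 and 1.74 CPM in mutant hearts 1 to 3. The groups overlapped, with control heart 2 the lowest of all. Its log2 fold change was 0.15 (SE 0.28, 95% interval -0.51 to 0.80, unadjusted p = 0.62, edgeR adjusted p = 0.80). The least count was 32 reads, for which counting error alone gives a coefficient of variation of 17.7%, and the 95% interval of the change runs from -29.6% to 73.7%. Nrg1 shares 482 exon bases with Gm26578 on the opposite strand, which was at 0.432 to 0.888 CPM.

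Erbb2, the signalling partner without a ligand of its own (chr11:98412470-98437716, plus strand), was the gene of the 10 with the smallest p. Its level was 126, 134 and 126 CPM in the control hearts and 169, 157 and 173 CPM in the mutant hearts. Every mutant heart was above every control one, and the mean was 129 ± 4.80 CPM against 166 ± 8.00 CPM (SD, n = 3). The log2 fold change was 0.37 (SE 0.07, 95% interval 0.21 to 0.53), a change of 29.2%, with an unadjusted p of 0.00068 that ranks 138 of 17125 and an edgeR adjusted p of 0.083. DESeq2 gave 0.37 with an adjusted p of 0.0012, whereas over all alternatives the adjusted p ranged from 0.0012 to 0.245. It passed 0.05 also when all genes with at least 1 count were tested (adjusted p = 0.030). With any 1 heart left out the log2 fold change stayed between 0.35 and 0.41.

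Erbb4, the receptor that binds neuregulin (chr1:68032186-69108059, minus strand), did not separate the groups. It was at 55.8, 48.4 and 54.0 CPM in control and 65.4, 57.1 and 46.5 CPM in mutant hearts, so both the highest and the lowest heart were mutant. The log2 fold change was 0.10 (SE 0.12, 95% interval -0.19 to 0.38, unadjusted p = 0.46, edgeR adjusted p = 0.69). Within each heart the log2 ratio of Erbb4 to Erbb2 counts was -1.17, -1.47 and -1.23 in control and -1.37, -1.46 and -1.90 in mutant hearts, with means of -1.29 ± 0.16 and -1.58 ± 0.28 (SD, n = 3). These ratios overlapped between the groups.

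Among the other EGF-family ligands, receptors and adaptors, 17 of 21 were tested, and at the unadjusted limit of 0.05 the list had 0 higher and 1 lower gene, 5.88% against 19.5% of all genes, with a median log2 fold change of -0.01 beside -0.0017 for all tested genes. The gene that was lower was Btc, the ligand betacellulin, at 2.70, 5.27 and 4.41 CPM in control and 1.91, 1.86 and 1.88 CPM in mutant hearts. Its log2 fold change was -1.13 (SE 0.26, unadjusted p = 0.0022, edgeR adjusted p = 0.097, DESeq2 adjusted p = 0.0032). The groups did not overlap, and control heart 1 was the nearest to the mutant ones. The 2 receptors closest to the pair above gave -0.07 (Erbb3, unadjusted p = 0.62) and -0.11 (Egfr, unadjusted p = 0.70), and the neuregulins Nrg2 and Nrg4 gave 0.43 (unadjusted p = 0.24) and 0.37 (unadjusted p = 0.31) at means under 1.2 CPM. Next in order of p were the adaptor Grb2 (-0.13, unadjusted p = 0.11), the receptor inhibitor Errfi1 (-0.27, unadjusted p = 0.12) and the ligand Tgfa (0.20, unadjusted p = 0.14). Areg, Ereg, Epgn and Nrg3 did not pass the filter, with totals of 2 to 54 reads over the 6 hearts.

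Bmp10 (chr6:87428994-87437677, plus strand) varied more between control hearts than between the groups. Its level was 55.9, 29.0 and 34.4 CPM in control hearts 1 to 3 and 54.0, 47.3 and 41.5 CPM in mutant hearts 1 to 3. Control heart 1 was the highest of the 6, and the other control hearts were the lowest of the 6. The log2 fold change was 0.26 (SE 0.23, 95% interval -0.26 to 0.78, unadjusted p = 0.28, edgeR adjusted p = 0.54). The coefficient of variation among control hearts was 35.8%, against at most 3.42% from counting. Without control heart 1 the log2 fold change was 0.59 (SE 0.14, unadjusted p = 0.0032, edgeR adjusted p = 0.061), and without control heart 2 it was 0.08. The summed level of 6 endocardial markers, mostly of Npr3 and Plvap, moved with these hearts. It was 461, 259 and 348 CPM in control and 471, 455 and 422 CPM in mutant hearts. The log2 fold changes of the 6 ran from -0.09 (Tmem100) to 1.25 (Hapln1), 5 above 0 and 1 below. Their part in the Bmp10 values was not tested. Nor was that of the atrial markers given above, although Bmp10 is also a ligand of later atrial myocardium.

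**Figure D2:**
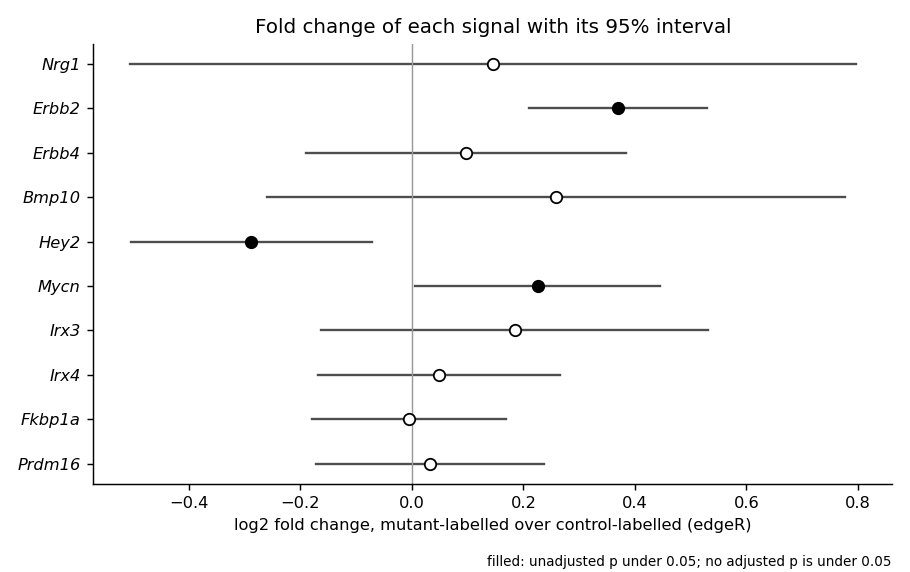
Log2 fold change of each of the 10 genes (x axis, mutant over control, edgeR) with its 95% interval. Filled points have an unadjusted p under 0.05. The intervals of Erbb2, Hey2 and Mycn leave out 0, and those of Nrg1 and Bmp10 are the widest.

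Several other BMP genes had smaller p-values than Bmp10. Of 23 listed ligands, receptors, Smads and targets 22 were tested, and at the unadjusted limit of 0.05 the list had 7 higher and 0 lower genes, against 9.48% higher and 9.98% lower of all tested genes. DESeq2 called 5 of the 22 after adjustment, all of them higher, against 6.10% of all genes in both directions. The median log2 fold change of the list was 0.05. The ligand Bmp4 was at 8.90, 5.82 and 7.80 CPM in control and 12.0, 14.1 and 11.5 CPM in mutant hearts, a log2 fold change of 0.74 (SE 0.17, unadjusted p = 0.0022, DESeq2 adjusted p = 0.0033). Every mutant heart was above every control one. Bmp7, a further ligand, was at 135, 140 and 124 CPM against 171, 168 and 191 CPM, with a log2 fold change of 0.41 (SE 0.08, unadjusted p = 0.00097, DESeq2 adjusted p = 0.0015).

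The receptor genes Acvr2b and Bmpr1b were also higher in all 3 mutant hearts. Acvr2b, a type II receptor, was at 7.27, 5.61 and 5.86 CPM against 10.2, 9.30 and 9.43 CPM (log2 fold change 0.62, DESeq2 adjusted p = 0.0061). Bmpr1b, a type I receptor, was at 1.65, 0.919 and 0.771 CPM against 2.30, 2.30 and 2.43 CPM (log2 fold change 1.06, DESeq2 adjusted p = 0.036). Smad6, an inhibitor that BMP signals induce, was at 54.3, 43.8 and 50.2 CPM against 60.7, 63.1 and 65.7 CPM (log2 fold change 0.35, DESeq2 adjusted p = 0.030). Bmp2 (0.30, unadjusted p = 0.017) and Smad9 (0.43, unadjusted p = 0.026) completed the 7. The common targets Id1, Id2 and Id3 gave log2 fold changes of -0.05, 0.24 and 0.03, with unadjusted p of 0.66, 0.36 and 0.76. No gene of the list passed an edgeR adjusted p of 0.05 with all hearts, while 4 did without control heart 1. In that fit 320 genes were called higher and 431 lower over all tested genes. Some markers of other cell types also differed between the groups, in both directions. Of 3 cushion mesenchyme markers Twist1 (0.96) and Sox9 (0.37) were higher and Postn (-0.43) lower without overlap, with a summed level, mostly of Postn, of 530 to 631 CPM in control and 421 to 460 CPM in mutant hearts. Of 5 epicardial markers Upk3b (0.57) was higher and Upk1b (-0.28) lower without overlap, with a summed level of 138 to 142 CPM against 147 to 169 CPM. Their part in the values of the BMP genes was not tested.

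**Figure D3:**
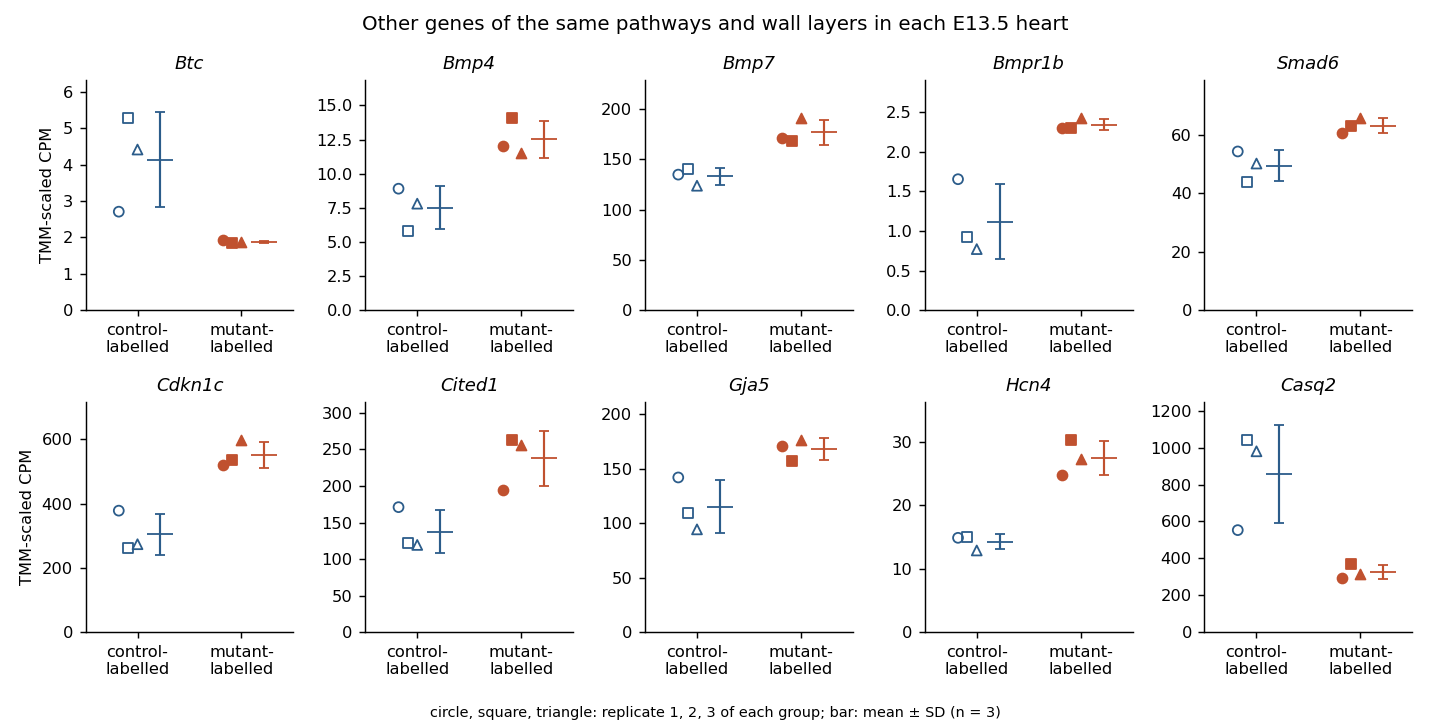
TMM-scaled CPM (y axes from 0, each panel with its own scale) of 10 further genes of these pathways and wall layers in the 3 control (open) and 3 mutant (filled) hearts, with mean ± SD (n = 3). The groups do not overlap in any panel. Control heart 1 (open circle) is the control heart nearest to the mutant ones for 8 of the 10, but not for Bmp7 or Hcn4.

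Hey2, a repressor of the Notch-responsive Hairy family that marks compact myocardium (chr10:30832359-30842801, minus strand), was the 1 gene of the 10 that was lower at an unadjusted p under 0.05. It was at 188, 209 and 165 CPM in control and 159, 151 and 151 CPM in mutant hearts. All mutant hearts were below all control ones, by a narrow margin to control heart 3. The mean was 187 ± 22.3 CPM against 153 ± 4.44 CPM (SD, n = 3). This gave a log2 fold change of -0.29 (SE 0.09, 95% interval -0.50 to -0.07) or -18.1%. The unadjusted p was 0.015, the edgeR adjusted p 0.17 and the DESeq2 adjusted p 0.088, and over all alternatives the adjusted p ranged from 0.088 to 0.362. The summed ventricular markers Myl2, Myl3 and Pln were at 8335 to 10534 CPM in control and 7373 to 8363 CPM in mutant hearts, and their part in the Hey2 values was not tested. The RBPJ matches in its promoter are given above.

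Heyl and Hey1, its nearest relatives, did not overlap between the groups either. Heyl was at 20.1, 26.4 and 30.4 CPM against 17.2, 18.3 and 18.0 CPM, a log2 fold change of -0.52 (SE 0.14, unadjusted p = 0.0061, DESeq2 adjusted p = 0.022). Hey1 was at 15.6, 15.9 and 16.5 CPM against 14.7, 15.5 and 13.6 CPM, a log2 fold change of -0.13 (unadjusted p = 0.18). Upstream of them, the receptor Notch1 gave -0.09 (unadjusted p = 0.64), its ligand Dll4 -0.08 (unadjusted p = 0.59) and Rbpj -0.04 (unadjusted p = 0.74), while the ligand Jag1 was at 19.4, 20.0 and 20.4 CPM against 24.2, 22.6 and 21.9 CPM (0.20, unadjusted p = 0.035). The paper states that its RNA-seq data showed no significant change of Notch signalling.

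Mycn, a MYC-family activator of cardiomyocyte growth (chr12:12936093-12941914, minus strand), was at 48.3, 46.4 and 58.1 CPM in control and 57.5, 59.8 and 61.4 CPM in mutant hearts. Control heart 3 reached into the range of the mutant hearts. The log2 fold change was 0.23 (SE 0.10, 95% interval 0.01 to 0.45, unadjusted p = 0.045, edgeR adjusted p = 0.25, DESeq2 adjusted p = 0.26). It lay between 0.16 and 0.33 with any 1 heart left out. Myc, its relative, gave -0.12 (unadjusted p = 0.48), and Mycl, with 68 reads in all, did not pass the filter. The direction in Mycn was opposite to that in Hey2, although both are counted as genes of the compact layer.

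Irx3 (chr8:91798525-91802067, minus strand) is a homeobox gene of the trabecular conduction system. It was at 34.9, 24.3 and 28.1 CPM in control and 28.0, 35.5 and 36.0 CPM in mutant hearts, a log2 fold change of 0.18 (SE 0.15, 95% interval -0.16 to 0.53, unadjusted p = 0.26, edgeR adjusted p = 0.51). Control heart 1 lay with the 2 higher mutant hearts, and without it the value was 0.34 (unadjusted p = 0.041, edgeR adjusted p = 0.20). Irx3 shares 124 exon bases with Irx3os on the opposite strand, which averaged 1.10 CPM in control and 1.35 CPM in mutant hearts.

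Irx4 (chr13:73260479-73269608, plus strand), the ventricular member of the family, was at 77.5, 85.3 and 80.4 CPM in control and 77.4, 78.8 and 95.7 CPM in mutant hearts. Only mutant heart 3 was outside the control range by more than a trace, and the log2 fold change was 0.05 (SE 0.09, 95% interval -0.17 to 0.27, unadjusted p = 0.62, edgeR adjusted p = 0.80). The log2 ratio of Irx4 to Irx3 counts averaged 1.49 ± 0.33 in control and 1.34 ± 0.17 in mutant hearts (SD, n = 3) and overlapped.

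The Iroquois genes lie in clusters, Irx3 with Irx5 and Irx6 and Irx4 with Irx1 and Irx2. Irx5 was at 25.2, 17.7 and 18.6 CPM in control and 27.5, 26.1 and 29.2 CPM in mutant hearts (log2 fold change 0.43, unadjusted p = 0.014, edgeR adjusted p = 0.17, DESeq2 adjusted p = 0.070). Irx6 was at 2.84, 0.919 and 1.70 CPM against 3.15, 3.41 and 3.18 CPM (0.82, unadjusted p = 0.047). Neither overlapped between the groups, and in both control heart 1 was the nearest to the mutant hearts. In the other cluster Irx1 gave 0.19 (unadjusted p = 0.23) and Irx2 0.13 (unadjusted p = 0.26), and both overlapped. Whether the clusters differ was not tested.

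Fkbp1a (chr2:151542483-151561692, plus strand) encodes a small binding protein of calcium release channels and TGF-beta receptors. It was at 342, 343 and 334 CPM in control and 324, 361 and 331 CPM in mutant hearts. The log2 fold change was -0.0048 (SE 0.08, 95% interval -0.18 to 0.17, unadjusted p = 0.95, edgeR adjusted p = 0.98), so that the interval runs from -11.7% to 12.5%. The control hearts lay within the range of the mutant ones. Its relative Fkbp1b gave -0.03 (unadjusted p = 0.86) at 3.78 to 4.78 CPM.

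Prdm16 (chr4:154316125-154636873, minus strand) encodes a zinc finger regulator of compact myocardium. It was at 30.7, 26.7 and 29.1 CPM in control and 31.7, 29.0 and 27.8 CPM in mutant hearts, a log2 fold change of 0.03 (SE 0.09, 95% interval -0.17 to 0.24, unadjusted p = 0.72, edgeR adjusted p = 0.86). The groups overlapped along most of their range. Mecom, its nearest relative, was at 31.0, 30.2 and 29.3 CPM against 34.9, 32.6 and 31.9 CPM, a log2 fold change of 0.14 (unadjusted p = 0.11) without overlap. Prdm16 shares 109 exon bases with B230104I21Rik on the opposite strand, which was at no more than 0.141 CPM.

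**Figure D4:**
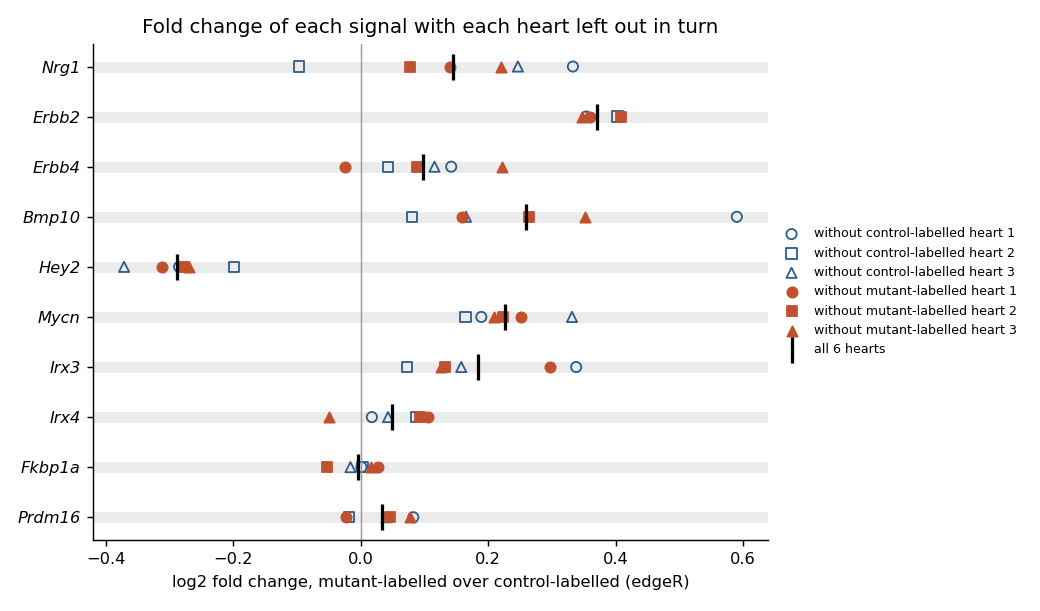
Log2 fold change of each of the 10 genes (x axis, edgeR) with all 6 hearts (vertical tick) and with each heart left out in turn (open, a control heart; filled, a mutant heart). Erbb2 stays between 0.35 and 0.41 and Hey2 between -0.37 and -0.20, whereas Bmp10 spreads from 0.08 to 0.59 and Nrg1, Erbb4, Irx4, Fkbp1a and Prdm16 cross 0.

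Over the 10 genes, 8 log2 fold changes were above 0 and 2 below, with a median of 0.12 beside -0.0017 for all tested genes and a range of -0.29 to 0.37. The number with an unadjusted p under 0.05 was 4 without control heart 1, which added Bmp10 and Irx3 and lost Mycn. It was 1 without mutant heart 2 and 1 without mutant heart 3. The share of all genes at this limit is not given for these fits, so these counts have no background beside them. Without control heart 1, calls over all genes at an adjusted p under 0.05 rose from 0 to 320 higher and 431 lower. Leaving out 1 heart changed the sign of Nrg1 (without control heart 2), Erbb4 (without mutant heart 1), Irx4 (without mutant heart 3), Prdm16 (without control heart 2 or mutant heart 1) and Fkbp1a, whose value was close to 0 throughout.

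Per kb of exon the genes spanned a wide range of levels. Fkbp1a had the highest mean in control hearts, 88.1 CPM per kb, followed by Hey2 at 40.8, Irx4 at 31.1, Erbb2 at 24.7, Mycn at 15.5, Irx3 at 10.5, Bmp10 at 8.86, Erbb4 at 4.27, Prdm16 at 3.09 and Nrg1 at 0.170 CPM per kb. In that order the ranges of neighbours overlapped in control hearts for Irx3 and Bmp10 alone. In mutant hearts the ranges of Hey2 (32.8 to 34.5 CPM per kb), Irx4 (29.7 to 36.7) and Erbb2 (30.2 to 33.2) overlapped one another, as did those of Irx3 and Bmp10. Among tested genes, 96.0% lay below Fkbp1a, 91.3% below Hey2 and 88.6% below Erbb2 on this scale, against 6.28% below Nrg1.

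The log2 ratio of Hey2 to Bmp10 counts, a compact over a trabecular gene, was 1.75, 2.85 and 2.26 in control and 1.56, 1.68 and 1.86 in mutant hearts. Control heart 1 lay within the range of the mutant hearts, so the groups overlapped despite means of 2.29 ± 0.55 and 1.70 ± 0.15 (SD, n = 3). The ratio of Mycn to Bmp10 averaged 0.41 ± 0.54 against 0.33 ± 0.24, and that of Prdm16 to Bmp10 -0.41 ± 0.40 against -0.68 ± 0.10 (log2, SD, n = 3). Both overlapped between the groups.

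**Figure D5:**
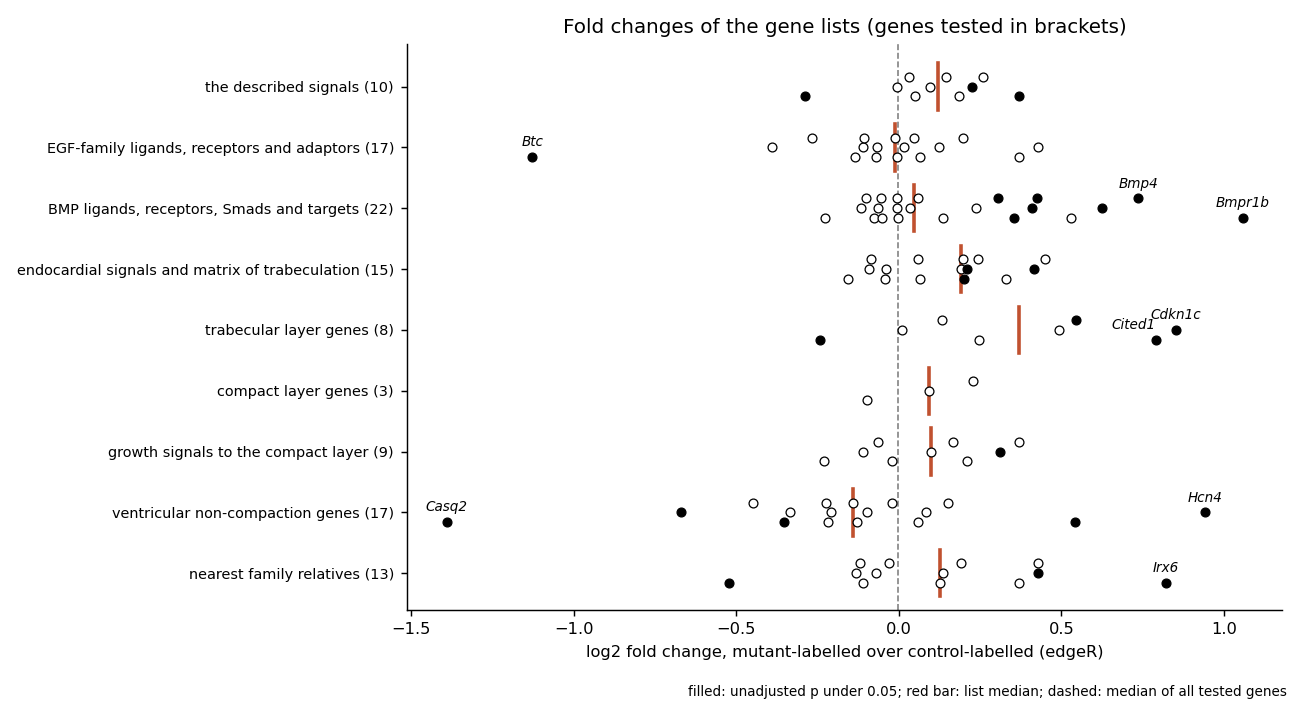
Log2 fold change (x axis, edgeR) of each tested gene of the 10 described signals and of 8 related gene lists (rows, with the number tested). Filled points have an unadjusted p under 0.05, red bars are list medians and the dashed line is the median of all tested genes. The trabecular layer genes have the highest list median, 0.37, and the ventricular non-compaction genes hold both Casq2 at -1.39 and Hcn4 at 0.94.

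Other genes of the trabecular layer were mostly higher in mutant hearts. Of 8 tested, 3 were higher and 1 was lower at the unadjusted limit of 0.05, where 9.48% and 9.98% of all genes were. With DESeq2 3 of the 8, the same higher genes, passed an adjusted p of 0.05, against 6.10% of all genes in both directions. The median log2 fold change of the list was 0.37. Without control heart 2 the median was 0.11. Cdkn1c, an inhibitor of the cell cycle, was at 378, 263 and 274 CPM in control and 520, 534 and 597 CPM in mutant hearts, with a log2 fold change of 0.85 (SE 0.14, unadjusted p = 0.00034, edgeR adjusted p = 0.076, DESeq2 adjusted p = 8.9e-07). Cited1, a transcriptional cofactor, was at 171, 122 and 119 CPM against 195, 263 and 256 CPM (0.79, DESeq2 adjusted p = 0.00016). Gja5, the gap junction protein of trabeculae and atria, was at 142, 109 and 94.5 CPM against 171, 157 and 176 CPM (0.54, DESeq2 adjusted p = 0.0071). As Gja5 is also an atrial gene, the higher atrial markers given above stand beside it, and their part was not tested.

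The trabecular natriuretic peptide genes Nppa and Nppb overlapped between the groups, with log2 fold changes of 0.25 (unadjusted p = 0.41) and 0.13 (unadjusted p = 0.64). Smpx, a small muscle protein, was at 365, 446 and 368 CPM against 310, 348 and 338 CPM (-0.24, unadjusted p = 0.043). Beside Hey2, Mycn and Prdm16, the compact layer genes Ccnd2 (0.23, unadjusted p = 0.065), Ccnd1 (0.09, unadjusted p = 0.21) and Tbx20 (-0.10, unadjusted p = 0.37) overlapped, and 0 of the 3 had an unadjusted p under 0.05.

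Endocardial signals and matrix of trabeculation were tested for 15 of 15 genes, with 3 higher and 0 lower at the unadjusted limit of 0.05 and a median of 0.19. That is 20.0% of the list, near the 19.5% of all genes. These were Jag1, the ligand Efnb2 (0.21, unadjusted p = 0.031) and the hyaluronan synthase Has2 (0.41, unadjusted p = 0.036), followed by the transcription factor Hand2 (0.24, unadjusted p = 0.053). Without control heart 2, 0 of the 15 passed, as without mutant heart 2, and the share of all genes is not given for these fits. Of growth signals to the compact layer 9 of 11 were tested, and 1 was higher and 0 lower at the same limit (11.1% against 19.5% of all genes), the growth factor Igf2 at 5369, 4388 and 4589 CPM against 6772, 5743 and 5268 CPM (0.31, unadjusted p = 0.043). Next were the receptors Fgfr2 (0.37, unadjusted p = 0.065) and Fgfr1 (0.17, unadjusted p = 0.19) and the ligand Igf1 (-0.23, unadjusted p = 0.26).

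Genes linked to ventricular non-compaction in people had values in both directions. Of 17 tested, 2 were higher and 3 were lower at the unadjusted limit of 0.05, together 29.4% against 19.5% of all genes. With DESeq2's adjusted p under 0.05 there were 2 and 2, against 6.10% of all genes in both directions, and the median was -0.14. Hcn4, the pacemaker channel, was at 14.9, 15.1 and 12.9 CPM in control and 24.8, 30.3 and 27.3 CPM in mutant hearts, a log2 fold change of 0.94 (SE 0.11, unadjusted p = 1.9e-05, edgeR adjusted p = 0.065, DESeq2 adjusted p = 7.1e-10). Casq2, the calcium store protein of the sarcoplasmic reticulum, was at 553, 1040 and 980 CPM against 296, 369 and 316 CPM (-1.39, SE 0.22, unadjusted p = 0.00023, edgeR adjusted p = 0.069, DESeq2 adjusted p = 1.2e-09). Tbx5, a T-box factor, was at 41.5, 40.6 and 37.5 CPM against 58.6, 62.4 and 53.2 CPM (0.54, DESeq2 adjusted p = 7.1e-05), and Dtna, of the dystrophin complex, at 16.8, 25.2 and 22.6 CPM against 12.8, 13.6 and 14.3 CPM (-0.67, DESeq2 adjusted p = 0.0021). Without control heart 1 the list had 2 higher and 7 lower at the unadjusted limit, and with any other heart left out 2 higher and 2 to 4 lower. The share of all genes at this limit is not given for these fits. Without control heart 1, calls over all genes at an adjusted p under 0.05 rose too, as given above. The log2 fold changes of Hcn4, Casq2, Tbx5 and Dtna lay farther from 0 than that of any of the 10 signals, of which Erbb2, at 0.37, was the farthest. These 4 were picked as the smallest p of the 17, whereas all 10 signals are given, so the comparison does not set the list apart. The summed atrial markers given above were higher in mutant hearts too, and their part in the Hcn4 and Tbx5 values was not tested.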

How the data were processed

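The authors made libraries from whole-heart RNA, sequenced 76 bp paired-end reads, mapped them with STAR 2.4.2a to GRCm38 with GENCODE vM6 annotation and counted them per gene with summarizeOverlaps, and the deposited counts are not normalized. Strand use and the treatment of overlapping genes are not given in the sources used here, so counts of overlapping genes are uncertain. The authors' second table holds their DESeq2 comparison, of which only identifiers and symbols were read.

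Tests were run with edgeR 4.0.16 and limma 3.58.1 under R 4.3.3 (filterByExpr, minimum count 10 and minimum total 15, TMM, quasi-likelihood, condition as the only term, threshold 0.05). The SE is the size of the log2 fold change over the square root of F, and the steps were tested on simulated data. Alternatives were RLE and total-count scaling, DESeq2 1.42.0, 2 other filters, the replicate number as a block, and leaving out each heart. Coordinates and exon lengths are from GENCODE vM21 (GRCm38), and promoters from RefSeq. Precision was limited by the spread between hearts (common biological coefficient of variation 0.153) more than by depth.

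The 10 genes and the lists, compiled from general knowledge, were chosen with earlier results of these data known. The named genes were all 10 signals and, of each list other than the cell type markers, up to 4 with the smallest p, any past DESeq2's adjusted p of 0.05, and the nearest relatives. Bmp2, Smad9, Id1, Id2, Id3, Notch1, Dll4, Rbpj, Nppa and Nppb fall outside this rule and were named after their values were seen.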

Additional observations from a re-analysis of the deposited data

How the results depend on the processing

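Genes called at an adjusted p under 0.05 numbered 0 higher and 0 lower with edgeR, at an unadjusted p under 0.05 1624 and 1709. DESeq2 called 443 higher and 570 lower, and edgeR on all genes with at least 1 count called 262 and 341. Of the 10 signals 1, Erbb2, was called under either setting. Leaving out each heart gave 0 to 320 higher and 0 to 431 lower, the upper ends without control heart 1, 0 of the signals called, 1 to 4 of them at an unadjusted p under 0.05, and a median log2 fold change of 0.06 to 0.17. The cause was not tested, and the share of all genes at the unadjusted limit is not given for these fits.

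With the replicate number as a block, 1 gene was called higher and 13 lower, and 0 signals. Same-numbered hearts did not deviate together (correlations 0.02, -0.08 and -0.07), and differently numbered hearts gave -0.08 to 0.14. Whether any hearts share a litter or a batch is not known from these values.

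Some signs turned. Fkbp1a, at -0.0048, gave 0.052 with total-count scaling and 0.0038 with the filter lowered to 1 count, and Fkbp1b gave 0.028 with total-count scaling. Leaving out each heart gave a range across 0 for Fkbp1a (-0.053 to 0.027), Nrg1 (-0.097 to 0.33), Erbb4 (-0.025 to 0.22), Irx4 (-0.049 to 0.11), Prdm16 (-0.023 to 0.082), Erbb3 (-0.16 to 0.072), Egfr (-0.37 to 0.12), Nrg4 (-0.035 to 0.55), Myc (-0.25 to 0.097) and Fkbp1b (-0.11 to 0.063). Total-count scaling moved the median of all genes to 0.057. For Nrg1 depth also limits the comparison.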
